A study of Arabidopsis thaliana with 18 samples.

Results

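The als3-1 mutant of Arabidopsis thaliana, a line named for the gene ALUMINUM SENSITIVE 3, was compared with itself on medium with and without aluminium. The samples are the 6 libraries labelled als3-1 of the 18 in the series, 3 at 0 mM and 3 at 1.5 mM AlCl3, and they were chosen by those labels alone. Each library holds poly(A) RNA of whole seedlings of ecotype Col-0 that had grown in constant light at 20 degrees C on soaked gel medium of pH 4.2 and were collected 84 h after sowing. The other groups, wild type and sog1-7 at the same AlCl3 concentrations with 3 libraries each, serve here only to show where the als3-1 response differs. All groups share the acid medium, and the labels do not say what the als3-1 and sog1-7 lesions are. Libraries carry the replicate numbers 2, 3 and 4. The labels do not say whether the libraries of a group came from separately grown seedlings, and p-values here therefore speak only of the spread among these libraries, part or all of which could be technical.

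Aluminium ions become soluble in acid soil and stop root growth. Roots answer by releasing malate and citrate, which bind the metal outside the root, under the control of the zinc finger factor STOP1, and ALS3 belongs to a transporter-like pair that lowers sensitivity to it. SOG1 is a NAC transcription factor that ATM and ATR kinases activate after DNA damage, and it switches on repair genes and inhibitors of the cell cycle. The study's title names ERF115, a factor of stem cell replenishment, and the question addressed here is which transcripts the aluminium-sensitive line gained and lost.

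Levels are given as counts per 1e6 counts after library scaling (CPM), always in the order of replicates 2, 3 and 4. CPM does not correct for gene length, so levels are compared only within a gene. Changes are log2 fold changes at 1.5 against 0 mM ± SE, and a gene is called at an adjusted p under 0.05 in edgeR's quasi-likelihood test with Benjamini-Hochberg adjustment over 21650 genes. The SE was derived from that test, as the absolute change divided by the square root of its F statistic, and was not estimated separately. Whole seedlings were measured, so fewer cells of a type and less RNA per cell cannot be told apart. ALS3 itself (AT2G37330, chromosome 2, 15669131 to 15670187) had 2.56, 3.79 and 3.52 CPM at 0 mM and 5.07, 7.88 and 7.29 CPM at 1.5 mM in als3-1. All treated libraries lay above all untreated ones (1.03 ± 0.27, adjusted p = 0.0232). Leaving out replicate 2 or 4 at 0 mM, or replicate 3 or 4 at 1.5 mM, ended this call (adjusted p = 0.104, 0.0588, 0.0976 and 0.0601). The ALS3 level at 0 mM was 3.29 ± 0.65 CPM (SD, n = 3) in als3-1 and 3.28 ± 0.276 CPM in wild type, and SOG1 had 16.2 to 19.4 CPM in the 6 als3-1 libraries, so neither transcript checks the genotype labels.

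The 6 libraries held 30.17 to 44.57 in units of 1e6 counts, and 3 counts in a library stand for 0.062 to 0.0998 CPM, below which differences were not detectable. Floors and intervals cover counting error only. The share of counts on ribosomal RNA genes was 0.909% to 4.25% in 5 of the libraries and 0.0168% in 1.5 mM replicate 2, which with both sog1-7 libraries of replicate 2 makes up the low-rRNA libraries left out in an alternative. The median gene had an SD of log2 CPM of 0.166 at 0 mM and 0.208 at 1.5 mM.

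Aluminium changed 2348 genes in als3-1 (10.8% of those tested), 987 higher (4.56%) and 1361 lower (6.29%), and 1152 of them by at least 2-fold. Groups that did not overlap, with all 3 treated libraries above or all below the untreated ones, made up 13.5% and 15.1% of all genes tested. Among the 2348 called genes 2240 did not overlap, so a lack of overlap adds little to a call. In 1034 of the called genes (4.78% of those tested) the call held in each of the 6 fits that left out 1 als3-1 library, 370 higher and 664 lower. The number was 4593 with the replicate number as a block. Leaving out replicate 2 at 0 mM gave 1531, and leaving out replicate 2 or 3 at 1.5 mM gave 1429 or 1360. The response was larger or smaller than that of wild type for 87 genes (0.402%, 0.0323% higher and 0.37% lower) and than that of sog1-7 for 249 genes (1.15%, 0.277% higher and 0.873% lower), or 187 and 410 with the block. The first of these numbers was 52 when replicate 3 at 0 mM was left out, and 43 or 49 when replicate 2 or 3 at 1.5 mM was. The second was 149 when replicate 3 at 1.5 mM was left out.

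**Figure D1:**
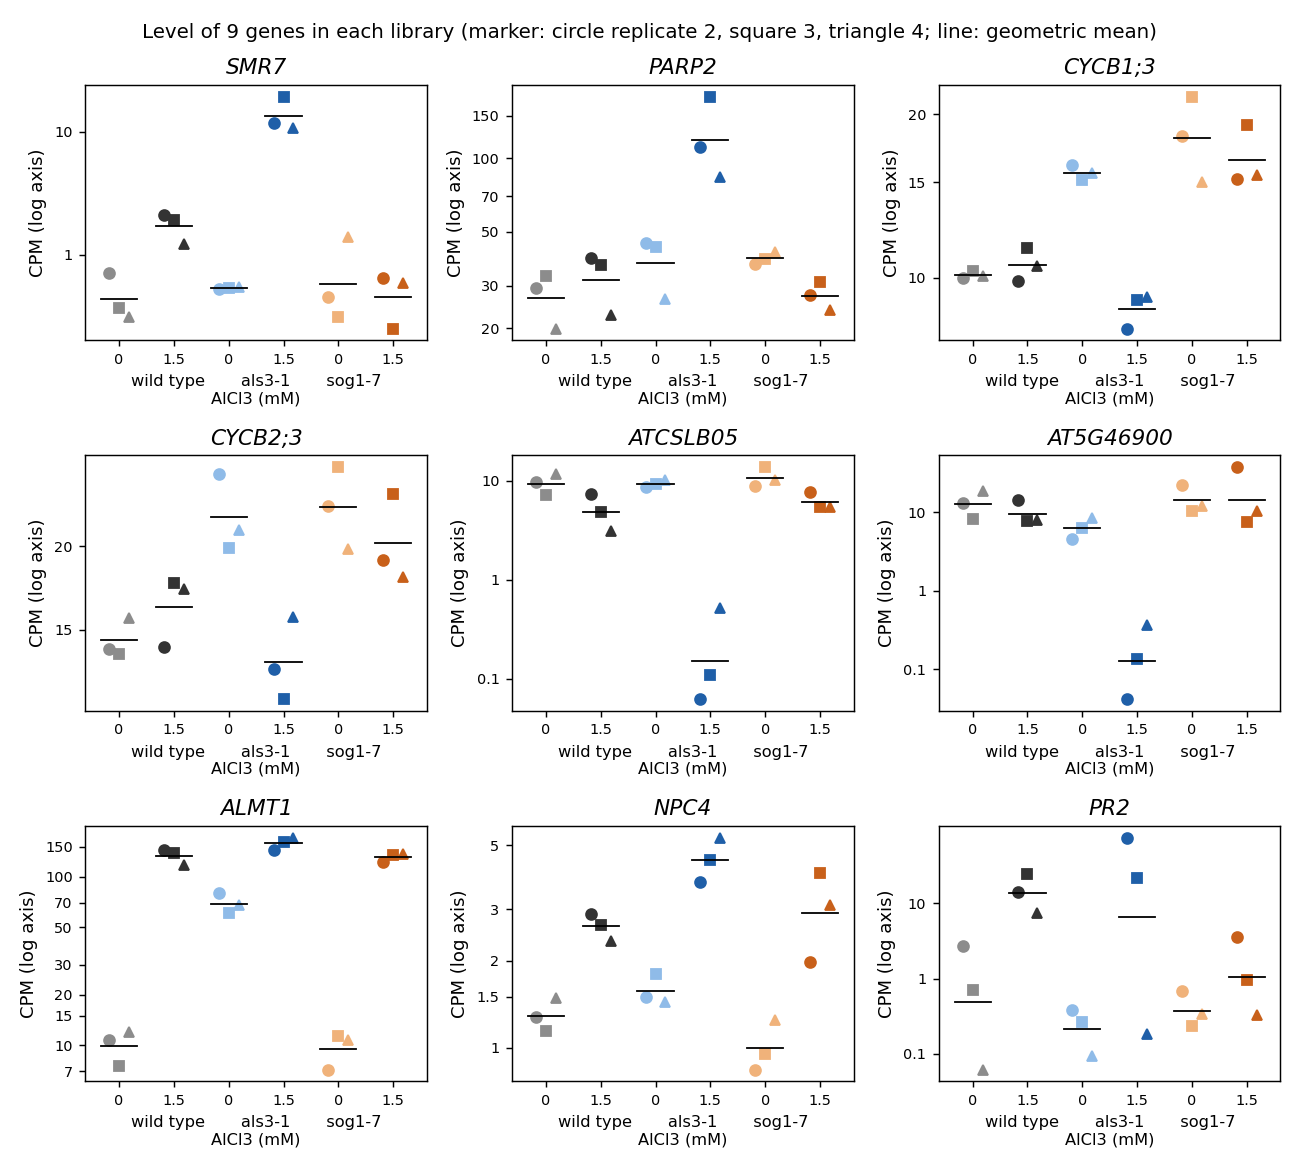
Level of 9 genes in each of the 18 libraries, in CPM on a log axis, by genotype and AlCl3 concentration, with the geometric mean of each group of 3 as a line. The treated als3-1 libraries of SMR7 and PARP2 lie above all other libraries, those of ATCSLB05 and AT5G46900 below all others, and ALMT1 starts in als3-1 at 60.6 to 79.8 CPM.

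Of the 49 genes listed for the DNA damage response, 48 passed the filter on low counts, 19 were called higher and 1 lower, and the median log2 fold change was 0.40 beside 0.02 over all genes tested. The median was 0.16 in wild type and −0.16 in sog1-7. For 13 of the 48 the response in als3-1 differed from that in sog1-7, and for 1, TIL2, from that in wild type. TIL2 is also among the 13, and it rose less in als3-1 than in either other genotype. For no other gene of the list was a difference from wild type called. The number called higher was 14 to 17 without 1 library. SMR7 (AT3G27630, chromosome 3, 10230892 to 10231567), a known SOG1 target that inhibits cyclin-dependent kinases, had 0.529, 0.532 and 0.543 CPM at 0 mM and 11.7, 19.2 and 10.7 CPM at 1.5 mM (4.69 ± 0.49, adjusted p = 1.8e-05). PARP2 (AT4G02390, chromosome 4, 1049766 to 1054186), which marks DNA breaks with ADP-ribose chains, had 44.9, 43.3 and 26.5 CPM at 0 mM and 111, 180 and 84.1 CPM at 1.5 mM (1.71 ± 0.28). In both genes the treated and untreated libraries stood apart, and replicate 3 was the highest of the treated ones.

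The SOG1 protein is known to bind the palindrome CTTNNNNNNNAAG. This motif was searched on both strands in the 300 bases before the start of each gene, from the RefSeq genome TAIR10.1, whose nuclear coordinates equal those of TAIR10. It occurred in 10.9% of 21022 promoters, in 12.5% of those of genes called higher in als3-1, in 9 of 48 of the DNA damage list (18.8%) and in 7 of the 19 of its genes called higher. The promoters of 2 of those 7 are shown 5′ to 3′ along the gene's strand, with the motif in capitals: SMR7 at chr3:10231568-10231867 (minus strand) and PARP2 at chr4:1049466-1049765 (plus strand).
SMR7: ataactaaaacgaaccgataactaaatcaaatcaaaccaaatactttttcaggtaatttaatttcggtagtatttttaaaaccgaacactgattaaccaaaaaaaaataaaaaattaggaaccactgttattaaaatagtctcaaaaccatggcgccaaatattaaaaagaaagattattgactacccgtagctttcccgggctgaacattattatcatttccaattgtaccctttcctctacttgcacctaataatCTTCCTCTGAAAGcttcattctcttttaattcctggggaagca
PARP2: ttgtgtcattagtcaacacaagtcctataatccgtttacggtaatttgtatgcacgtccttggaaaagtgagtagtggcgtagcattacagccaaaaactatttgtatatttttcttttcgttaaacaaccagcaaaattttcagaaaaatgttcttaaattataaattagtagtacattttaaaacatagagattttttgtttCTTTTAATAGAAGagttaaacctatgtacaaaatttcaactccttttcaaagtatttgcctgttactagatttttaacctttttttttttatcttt
The first base of the match lies 43 bases before the annotated start in SMR7 and 96 in PARP2. The promoters of other called genes with the motif included those of NAC044, NAC085, COM1 and PARG2, and the promoters of RAD54 and SMR4, which were not called, held the motif too. Among genes called higher whose response exceeded that of sog1-7, 8 of 59 promoters held it (13.6%), near the share of all promoters.

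By role, the DNA damage genes differed in how far they moved. Among sensors and signal carriers, RAD17, which loads the checkpoint clamp, went from 4.61, 4.83 and 6.59 to 22.7, 27.4 and 15 CPM (2.02 ± 0.28, adjusted p = 0.000257), while ATM (0.09), ATR (−0.73), WEE1 (−0.09) and SOG1 (0.07) were not called. Among repair genes, XRI1 (2.42 ± 0.25), TRFL10 (2.28 ± 0.24), GMI1 (2.11 ± 0.38), BRCA1 (1.89 ± 0.24), PARP1 (1.04 ± 0.13) and the cohesin subunit SYN2 (1.28 ± 0.21) rose with no overlap between the groups. Other recombination and end-joining genes were not called, with RAD54 at 0.05, RAD50 at −0.05, KU70 at −0.33, KU80 at −0.03 and LIG4 at 0.20. MRE11, which works in a complex with RAD50 and NBS1, was the 1 gene called lower (−0.46 ± 0.12, adjusted p = 0.0266), and its call held in just 1 of the 6 fits without a library, that without 0 mM replicate 4 (adjusted p = 0.0544 to 0.106 in the others). The DNA polymerase epsilon subunits TIL1 and TIL2 both rose, TIL1 by 1.2 ± 0.19 and TIL2 by 1.11 ± 0.28. In TIL2 the rise was smaller than in wild type (3.91 ± 0.32) and in sog1-7 (3.69 ± 0.31), its level at 0 mM was 1.6 ± 0.521 CPM in als3-1 and 0.568 ± 0.0824 CPM in wild type, and its als3-1 call ended when replicate 3 or 4 at 0 mM or replicate 2 or 4 at 1.5 mM was left out (adjusted p = 0.0638, 0.0932, 0.0576 and 0.073).

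Of 10 root regeneration genes 2 were called higher and 1 lower. The factor ERF115 had 0, 0.0666 and 0.118 CPM at 0 mM and 2.87, 2.72 and 2.31 CPM at 1.5 mM, that is 7 counts in all against 315 (5.27 ± 0.57, adjusted p = 2.32e-05). Its paralogue ERF114 went from 0.118, 0.2 and 0.165 to 3.33, 3.34 and 2.4 CPM (4.21 ± 0.46), 2.91 ± 0.67 more than in sog1-7 (adjusted p = 0.0494). The phytosulfokine peptide gene PSK2 fell from 3.91, 4.76 and 7.49 to 2.01, 1.63 and 2.19 CPM (−1.48 ± 0.33). The other 7 genes of this list were not called, among them the wound factor WIND1 (0.73) and ERF109 (−1.19). In wild type 2 of the 10 genes were called higher and 0 lower, and for 0 of the 10 was a difference from wild type called.

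Of 17 root meristem and root cap regulators 6 were called lower and 0 higher. FEZ (AT1G26870), a NAC factor of root cap stem cell divisions, had 1.59, 1.46 and 1.51 CPM at 0 mM and 0.186, 0.38 and 0.516 CPM at 1.5 mM (−2.10 ± 0.32, adjusted p = 0.000561). PLT1 (AT3G20840), one of the AP2 factors that specify the root stem cell niche, went from 4.88, 4.43 and 3.61 to 1.01, 1.14 and 1.64 CPM (−1.77 ± 0.25). PLT2 fell by 1.14 ± 0.21 and MGP, a zinc finger factor downstream of SHORT-ROOT, fell by 0.64 ± 0.13. The falls of FEZ, PLT1 and PLT2 were larger than in sog1-7 (differences −2.38 ± 0.43, −1.74 ± 0.35 and −1.31 ± 0.29), and that of MGP larger than in wild type (−0.92 ± 0.18, adjusted p = 0.0373). SMB and BBM were called too, at −0.78 ± 0.22 and −0.63 ± 0.18, but SMB lost its call when replicate 2 or 3 of either concentration was left out (adjusted p = 0.0939 to 0.104), and BBM when replicate 2 at 0 mM or any replicate at 1.5 mM was (0.0529 to 0.166). WOX5 (−0.25), SCR (−0.11), SHR (0.18) and PLT3 (0.01) were not called. The summed level of the 17 genes was 313 to 344 CPM at 0 mM and 311 to 318 CPM at 1.5 mM.

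Of 26 genes of the G2 and M phases of the cell cycle, 10 were called lower and 0 higher, 25 had negative log2 fold changes, and the median was −0.56. The number was 17 with the replicate block, and 4 without 1.5 mM replicate 2 or without 1.5 mM replicate 3. The B-type cyclin CYCB1;3 (AT3G11520, chromosome 3, 3625286 to 3627273) had 16.1, 15.1 and 15.6 CPM at 0 mM and 8.06, 9.1 and 9.23 CPM at 1.5 mM (−0.83 ± 0.13, adjusted p = 0.000712). CYCB2;3 (AT1G20610, chromosome 1, 7134659 to 7137828) went from 25.7, 19.9 and 21.2 to 13.1, 11.8 and 15.7 CPM (−0.72 ± 0.15). In both genes the groups were apart, and both started higher in als3-1 than in wild type, by 0.63 and 0.62 log2 units at 0 mM (adjusted p = 0.021 and 0.0472). The fall of CYCB1;3 was larger than the change in wild type (difference −0.89 ± 0.18, adjusted p = 0.0497). The other 8 called genes, HIK, CDC20.2, AUR1, PLE, SCL28, AUR2, CYCB2;2 and CYCB1;2, had −0.86 to −0.55, and each lost its call without 1.5 mM replicate 2, 1.5 mM replicate 3 or both. CYCB1;1, which is known to be induced by DNA damage, was the single member with a positive value (0.47), and was not called.

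MYB3R factors are known to control G2/M genes through MSA elements, whose core is AACGG. This core stood in 24.4% of all promoters of 300 bases, in 19 of 26 promoters of the G2/M list and in 9 of the 10 of the genes called lower, all but CDC20.2. Both cyclin promoters are printed 5′ to 3′ with the core, or its complement on the other strand, in capitals: CYCB1;3 at chr3:3627274-3627573 (minus strand) and CYCB2;3 at chr1:7137829-7138128 (minus strand).
CYCB1;3: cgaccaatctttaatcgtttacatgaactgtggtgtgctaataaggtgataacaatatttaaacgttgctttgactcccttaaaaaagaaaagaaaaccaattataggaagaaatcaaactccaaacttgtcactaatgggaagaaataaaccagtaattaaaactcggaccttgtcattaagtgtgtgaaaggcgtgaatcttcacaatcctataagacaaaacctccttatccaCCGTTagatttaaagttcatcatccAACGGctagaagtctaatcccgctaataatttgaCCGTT
CYCB2;3: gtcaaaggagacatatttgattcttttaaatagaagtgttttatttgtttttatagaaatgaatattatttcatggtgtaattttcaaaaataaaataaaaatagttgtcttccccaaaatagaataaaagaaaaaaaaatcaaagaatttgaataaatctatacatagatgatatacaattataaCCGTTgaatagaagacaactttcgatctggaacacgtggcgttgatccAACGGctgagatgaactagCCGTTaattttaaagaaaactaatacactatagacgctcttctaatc
Each holds 3 matches. Over all genes called lower the share was 22.1%, near that of all promoters.

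Of 16 genes of cytokinin synthesis, breakdown and response 9 were called lower and 0 higher, with a median of −0.84. Type-A response regulators, which cytokinin induces and which dampen its signal, made up most of them. ARR3 (AT1G59940) went from 5.76, 6.79 and 5.62 to 1.26, 1.39 and 1.21 CPM (−2.23 ± 0.21, adjusted p = 7.04e-06). ARR15 went from 2, 1.36 and 1.46 to 0.289, 0.217 and 0.486 CPM (−2.29 ± 0.31). The treated libraries lay below the untreated ones in both, and ARR5, ARR6, ARR8 and ARR4 fell by 1.39 ± 0.20, 1.21 ± 0.22, 0.83 ± 0.14 and 0.65 ± 0.09. For ARR3 the fall was larger than in sog1-7 (difference −1.69 ± 0.28, adjusted p = 0.00596). Without 1 library, 6 to 8 genes were called. In wild type the median was −0.56 and 3 of the 16 were called lower, and for 0 of the 16 was a difference from wild type called. Of 23 auxin genes 2 were called higher and 3 lower, beside 4.56% and 6.29% of all genes. The efflux carrier PIN2 of the root tip fell from 52.4, 53.5 and 46.8 to 23.8, 25.6 and 24.1 CPM (−1.05 ± 0.16), and the auxin synthesis gene YUC3 fell by 1.05 ± 0.22, both more than in sog1-7. LBD29, a factor of lateral root formation, rose by 2.14 ± 0.38. When replicate 2 or 3 of either concentration was left out, 1 auxin gene was called higher.

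Of 306 nuclear-encoded ribosomal protein genes, 280 passed the filter, 232 had negative and 47 positive log2 fold changes, 68 were called lower and 0 higher, and the median was −0.40. The count of calls was 144 lower and 1 higher with the replicate block, and 41, 30, 33 and 21 without 0 mM replicate 2, 0 mM replicate 4, 1.5 mM replicate 2 and 1.5 mM replicate 3. The median change was −0.11 in wild type and −0.04 in sog1-7, and for 1 of the 280 genes the difference from sog1-7 was called. RPL5B, of the large subunit, went from 623, 596 and 672 to 416, 369 and 473 CPM (−0.59 ± 0.13, adjusted p = 0.00802), and RPL10AC from 148, 121 and 140 to 78, 63 and 82.7 CPM (−0.87 ± 0.14). In both the groups were apart, with replicate 4 the highest of the treated libraries. Many of these genes are near-identical copies, and how reads with more than 1 match were counted is not given in the labels, so single members are less certain than the family. Core histones had a median of −0.17, with 1 of 47 called higher and 3 lower (13 lower with the block), near the 4.56% and 6.29% of all genes, and each of these calls ended in some fit without 1 library, the number lower being 0 to 4 and the number higher 0 or 1.

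**Figure D2:**
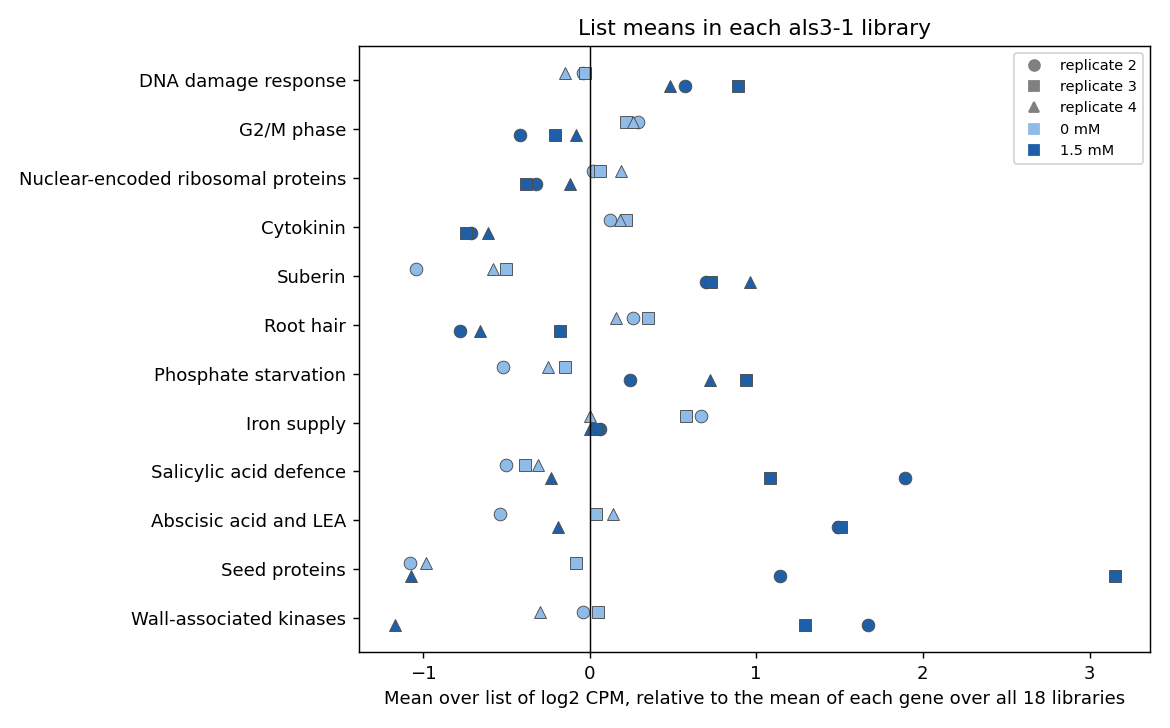
Mean over the genes of 12 lists of the log2 CPM in each als3-1 library, relative to the mean of each gene over all 18 libraries, with replicates by marker shape and AlCl3 concentration by shade. For suberin the treated libraries lie at 0.70, 0.73 and 0.96, while for salicylic acid defence they lie at 1.89, 1.08 and −0.23, with replicate 4 beside the untreated ones.

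Suberin is the waxy polyester that endodermal and wound tissues lay down in their walls. Of 20 suberin genes, 19 passed the filter and 12 were called higher, 0 lower, with a median of 1.51, and without 1 library 10 to 12 were called. CYP86A1 (AT5G58860, chromosome 5, 23765791 to 23768111), which hydroxylates the fatty acids of the polymer, went from 0.676, 3 and 2.06 to 17.9, 18.9 and 25.4 CPM (3.45 ± 0.36, adjusted p = 1.92e-05). The transporter ABCG6 went from 0.5, 1.23 and 1.04 to 5.67, 8.5 and 9.38 CPM (3.08 ± 0.45). The factor MYB93 (AT1G34670), of the endodermis over lateral root primordia, had 0.5, 0.666 and 0.425 CPM at 0 mM and 4.18, 3.1 and 3.61 CPM at 1.5 mM (2.78 ± 0.30), and its rise was 1.77 ± 0.40 more than in sog1-7 (adjusted p = 0.0418). In these genes no treated library overlapped the untreated ones. The acyltransferase GPAT5 (2.82 ± 0.38), CYP86B1 (3.0 ± 0.36), the reductases FAR5 (2.03 ± 0.23) and FAR4 (1.66 ± 0.22), the transferase FACT (1.51 ± 0.27) and ABCG20 (1.04 ± 0.18) rose too. The regulators MYB41 (1.58), MYB92 (−0.13) and MYB39 (−0.03) were not called. For 0 of the 19 was the difference from wild type called, where the median change was 0.68, and for 1 that from sog1-7.

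Casparian strip genes, which build the endodermal barrier of lignin, had the opposite sign: 11 of 12 were negative, with a median of −0.59 and 3 called lower. The oxidase gene RBOHF fell by 0.46 ± 0.10. The scaffold protein gene CASP4 (−1.42 ± 0.34) lost its call when replicate 3 at 0 mM or replicate 2 or 3 at 1.5 mM was left out (adjusted p = 0.0608, 0.0508 and 0.0512), and 5 genes were called lower without 0 mM replicate 2. Among genes of the xylem and its secondary wall, 2 of 15 were called lower, beside 6.29% of all genes (median −0.15, 1 without 0 mM replicate 3 or 1.5 mM replicate 2). The laccase LAC11 had −0.69 ± 0.14.

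For 78 genes the als3-1 response was called and differed from those of wild type and of sog1-7, which are compared with the same als3-1 libraries. Of these, 73 fell in als3-1, with medians of −2.29 in als3-1, −0.34 in wild type and −0.08 in sog1-7, and 53 fell at least 4-fold. The genes were selected by their als3-1 call and by these differences. The gap between the medians, the few calls in the other genotypes and the stable als3-1 calls follow in part from that selection and are descriptive only. In 60 of the 73 neither other genotype had a call, and 72 kept their als3-1 call in each fit without 1 library. The exception was BARS1, baruol synthase, which fell in als3-1 from 9.4, 9.22 and 5.48 to 4.98, 3.69 and 5.22 CPM (−0.79 ± 0.22, adjusted p = 0.0655 to 0.135 when replicate 2 or 3 of either concentration was left out) and rose in wild type (1.33 ± 0.22). Aluminium was called in wild type for 0.896% of all genes higher and 0.988% lower, and in sog1-7 for 0.739% higher and 0.448% lower. At 0 mM 5 of the 73 were higher in als3-1 than in wild type and 0 lower, beside 0.855% and 1.46% of all genes. The same 0 mM libraries enter the selection, which favours genes that start high in als3-1 among those that fall.

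ATCSLB05 (AT4G15290, chromosome 4, 8721482 to 8726733), a cellulose synthase-like gene, had 8.7, 9.25 and 10.2 CPM at 0 mM and 0.062, 0.109 and 0.516 CPM at 1.5 mM, the first at the level of 3 counts (−5.46 ± 0.50, adjusted p = 6.25e-06). Its change was −0.88 in wild type and −0.82 in sog1-7, neither called. The glyoxal oxidase-related gene AT1G19900 went from 17.3, 15.6 and 19.1 to 0.455, 0.516 and 0.668 CPM (−5.00 ± 0.36). The tandem lipid-transfer type genes AT5G46900 and AT5G46890, near-identical copies between which reads could be split, fell from 4.53, 6.29 and 8.43 to 0.0414, 0.136 and 0.364 CPM and from 4.67, 7.79 and 6.76 to 0.207, 0.109 and 0.455 CPM. In none of these genes did a treated library come near the untreated ones, but the rule that named them asks for groups without overlap. The pectin lyase-like gene AT4G01890 held 102 counts over the 0 mM libraries and 2 over the 1.5 mM libraries, a ratio of normalised counts of 56.6 (exact 95% counting interval 15.3 to 474). For AT2G04480, which has no described product, the counts were 67 and 3 and the ratio 24.8 (8.13 to 123). The receptor kinase family gene AT3G46400 fell from 3.85, 2.26 and 2.41 to 0.0827, 0.0815 and 0.152 CPM (−4.74 ± 0.36), and AT2G41810, of the DUF642 family, from 3.79, 4.29 and 3.28 to 0.103, 0.0543 and 0.121 CPM (−5.30 ± 0.48).

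Sorted by product, a grouping made after the values were seen, the 73 genes hold 4 terpenoid synthases or cyclases, 4 glycosyl hydrolases or beta-glucosidases, 3 pectin lyase-like proteins, 3 lipid-transfer type proteins, 3 class III peroxidases, and 2 each of the GDSL lipases, cellulose synthase-like proteins, arabinogalactan proteins, cytochromes P450 of family 705, cis-prenyltransferases, fatty acid desaturases, sulfotransferases, UDP-glycosyltransferases and acyltransferases or acyl reductases. No class holds more than 4 of the 73, and over all tested genes with the same product words most classes were called in both directions. Among 66 GDSL lipases 7 were called lower and 7 higher, among 56 peroxidases 13 and 13, among 48 lipid-transfer type proteins 8 and 6, among 153 UDP-glycosyltransferases 10 and 14, and among 69 acyltransferases or acyl reductases 4 and 8. Among 91 glycosyl hydrolases 13 were called lower and 6 higher, among 56 pectin lyase-like proteins 9 and 2, and among 161 cytochromes P450 22 and 15. The classes with calls in 1 direction were the 21 terpenoid genes, 11 lower and 0 higher, and the 8 prenyltransferases, 3 and 0. The synthase TPS22 went from 34.6, 28.3 and 23.5 to 10, 7.63 and 8.26 CPM (−1.73 ± 0.17). CER4, an alcohol-forming reductase of wax synthesis, fell from 7.79, 8.69 and 9.83 to 1.18, 0.978 and 1.31 CPM (−2.92 ± 0.27). The root myrosinase genes BGLU34 and BGLU35, similar copies that break down glucosinolates, fell by 2.27 ± 0.19 and 2.02 ± 0.21, and NSP4, a nitrile specifier of the same breakdown, by 1.40 ± 0.15. The groups did not overlap in any of these. Methionine sulfoxide reductase MSRB7 fell by 1.40 ± 0.22 in als3-1 and rose by 0.94 in sog1-7, where it was called.

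**Figure D3:**
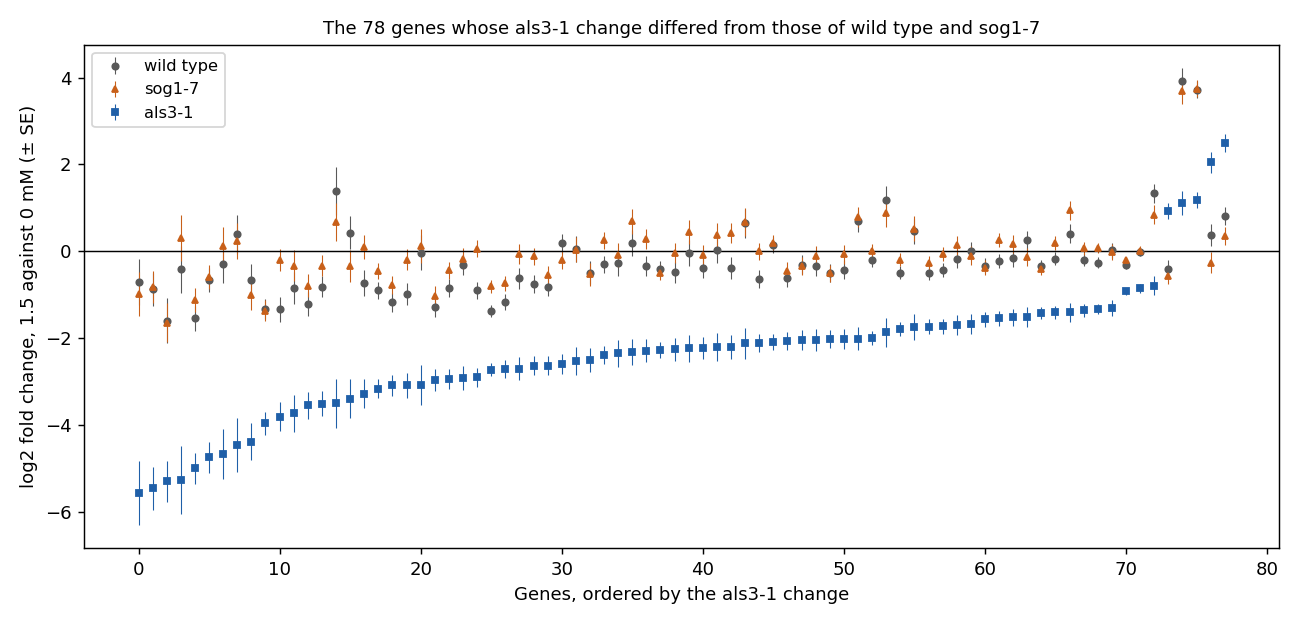
Log2 fold change ± SE at 1.5 against 0 mM in als3-1, wild type and sog1-7 for the 78 genes whose als3-1 response differed from both others, ordered by the als3-1 change. In als3-1 73 genes lie below 0 and 5 above, while the medians of the 73 are −0.34 in wild type and −0.08 in sog1-7. The genes were selected by these differences, so the gap follows in part from the selection.

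The 5 genes of the 78 that rose in als3-1 were ALMT1, TIL2, THA1, GEX1 and AT5G07610. The F-box gene AT5G07610 (chromosome 5, 2406068 to 2407330) went from 8.87, 8.49 and 6.45 to 42.7, 54.8 and 35.9 CPM (2.49 ± 0.21, adjusted p = 3.62e-06), 1.67 more than in wild type and 2.13 more than in sog1-7. GEX1, first described as a gamete-expressed gene, went from 3.47, 2.26 and 2.27 to 12.1, 11.4 and 9.53 CPM (2.05 ± 0.24), with 0.38 in wild type and −0.26 in sog1-7. THA1, a threonine aldolase, rose by 0.93 ± 0.19, with −0.40 in wild type and −0.56 in sog1-7. Their treated and untreated libraries did not overlap. ALMT1 and TIL2 rose less in als3-1 than in the other genotypes.

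Among families of the cell wall, xyloglucan endotransglucosylases (XTH), which cut and rejoin xyloglucan, moved both ways, 5 of 29 higher and 9 lower (median −0.10). XTH21 went from 6.02, 5.16 and 5.24 to 1.36, 1.11 and 1.37 CPM (−2.09 ± 0.19), XTH5 fell by 1.28 ± 0.15 and XTH20 by 1.03 ± 0.14, while XTH24 rose from 126, 136 and 125 to 245, 272 and 185 CPM (0.86 ± 0.18). The counts were 2 higher when replicate 3 at 0 mM or replicate 2 or 3 at 1.5 mM was left out, 3 higher without 0 mM replicate 2, and 5 lower without 1.5 mM replicate 2. Of 27 expansins 2 were called lower and 1 higher, near the 6.29% and 4.56% of all genes. EXPA14 fell from 26.3, 35.4 and 32.7 to 12.2, 13.1 and 9.84 CPM (−1.42 ± 0.14). The number of expansins lower was 1 without 0 mM replicate 4 or 1.5 mM replicate 2, and the number higher was 2 without 0 mM replicate 4 or 1.5 mM replicate 4. Of 42 arabinogalactan proteins, sugar-rich surface proteins, 5 were called lower and 1 higher, beside the same 6.29% and 4.56% of all genes. AGP30 had 37, 74.3 and 72.1 CPM at 0 mM and 4.28, 3.53 and 3.98 CPM at 1.5 mM (−3.96 ± 0.27), and AGP22 went from 24.3, 21.8 and 22.9 to 5.46, 5.05 and 6.74 CPM (−2.0 ± 0.16). The gene called higher, AGP5 (3.18 ± 0.93), lost its call with the replicate block (2.82) and in each fit without 1 library other than 1.5 mM replicate 4 (adjusted p = 0.0705 to 0.187). Of 50 extensins and proline-rich wall proteins 7 were called lower and 2 higher, the latter near the 4.56% of all genes. With the block the numbers were 15 and 8. EXT12, EXT13 and AT4G08400 fell by 1.78 ± 0.39, 1.55 ± 0.32 and 1.83 ± 0.39. The number higher was 0 or 1 when replicate 2 or 3 at 0 mM or replicate 2 at 1.5 mM was left out.

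Class III peroxidases, secreted enzymes that make or use hydrogen peroxide in the wall, split nearly evenly: of 65 tested 15 were called higher and 13 lower. PER5 went from 0.0588, 0.133 and 0.0472 to 3.6, 1.47 and 2.88 CPM (5.06 ± 0.58, adjusted p = 4.47e-05), PER11 from 0.647, 0.799 and 0.496 to 5.79, 3.61 and 4.61 CPM (2.86 ± 0.27), and PER49 rose by 2.35 ± 0.33 and PER20 by 2.63 ± 0.32. PER27 fell from 54, 60.4 and 59.8 to 6.56, 10.8 and 9.38 CPM (−2.71 ± 0.20), PER24 by 3.14 ± 0.37, PER56 by 2.06 ± 0.21 and PER38 by 2.01 ± 0.26. The falls of PER27, PER56 and PER38 were larger than the changes in wild type and sog1-7, and the rise of PER11 exceeded that in sog1-7 by 1.72 ± 0.36. The number lower was 8 when replicate 2 or 3 at 0 mM or replicate 3 at 1.5 mM was left out, 6 when replicate 2 at 1.5 mM was, and 20 with the block. Of 16 laccases, which polymerise lignin, LAC5 rose by 2.32 ± 0.30 and LAC1 fell by 2.15 ± 0.27.

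**Figure D4:**
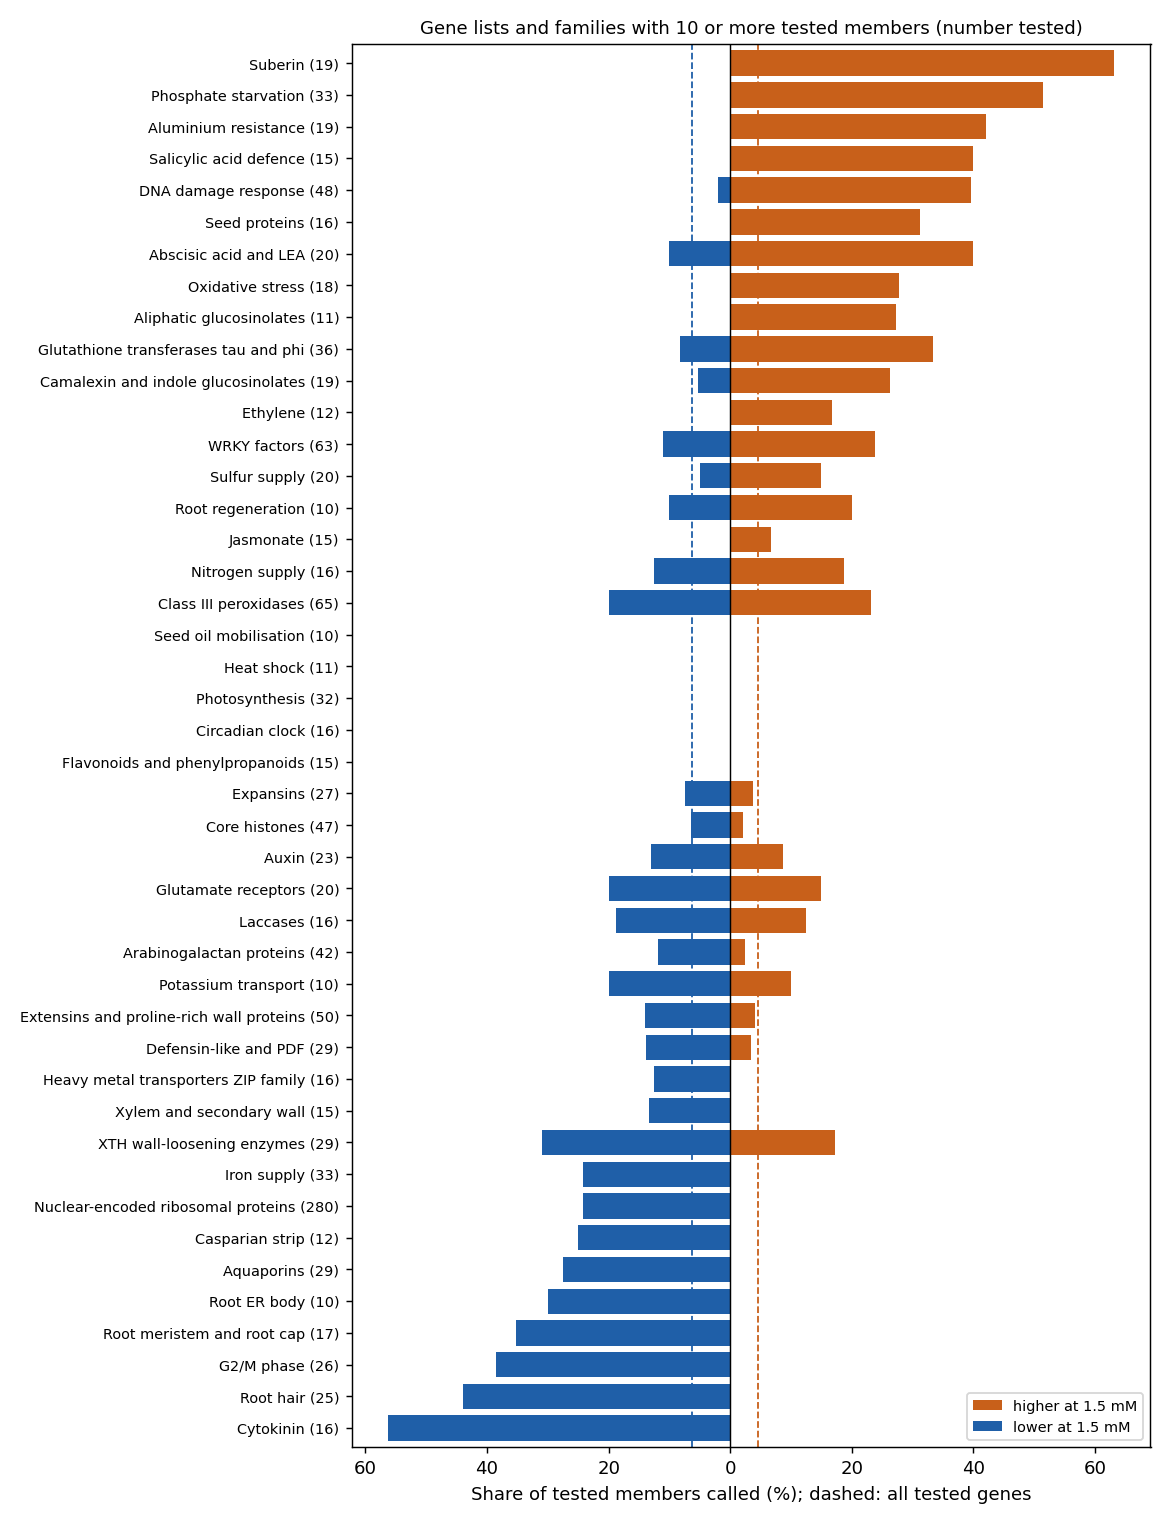
Share of tested members called higher (right) and lower (left) in als3-1 for lists and families with 10 or more tested genes, in percent, with dashed lines at the shares over all genes, 4.56% higher and 6.29% lower. Suberin (12 of 19) and phosphate starvation (17 of 33) stand farthest to the right, and cytokinin (9 of 16) and root hair (11 of 25) farthest to the left.

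Of 25 root hair genes 11 were called lower and 0 higher, with 24 negative values and a median of −0.82 beside −0.70 in wild type. The number was 17 with the replicate block, 4 without the low-rRNA libraries, 3 without 1.5 mM replicate 2, 5 without 0 mM replicate 2 or 3 and 6 without 1.5 mM replicate 4. XTH13 went from 26.4, 21.1 and 19.5 to 5.56, 7.98 and 5.83 CPM (−1.79 ± 0.27, adjusted p = 0.000565) and RHS8, a glycosyltransferase family gene, from 8.17, 5.69 and 5.72 to 1.65, 2.63 and 2.06 CPM (−1.63 ± 0.25). XTH12 fell by 1.49 ± 0.29. In these the groups were apart, with replicate 3 the highest treated library. The summed level of the 25 genes was 1220 to 1490 CPM at 0 mM and 619 to 1100 CPM at 1.5 mM.

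Aquaporins, the water channels, were called lower in 8 of 29 genes and higher in 0, or 5 lower without 1.5 mM replicate 2 and 5 without the low-rRNA libraries. The vacuolar channel TIP2;3 had 2.41, 6.92 and 9.43 CPM at 0 mM and 0.0827, 0.462 and 0.546 CPM at 1.5 mM (−4.17 ± 0.61). PIP2;4 of the plasma membrane went from 9.29, 19.4 and 21.9 to 1.74, 2.12 and 3.22 CPM (−2.85 ± 0.36), a larger fall than in sog1-7 (difference −2.33 ± 0.47, adjusted p = 0.0212). PIP1;1 went from 201, 233 and 255 to 72.1, 111 and 118 CPM (−1.19 ± 0.19), and NIP1;1 fell by 1.04 ± 0.14. Replicate 2 was the lowest library of its group in these genes, apart from the 0 mM group of NIP1;1, whose 3 libraries lay between 59.2 and 61.5 CPM. Root ER body genes, for the beta-glucosidase vesicles of roots, were called lower in 3 of 10 cases, beside 6.29% of all genes. The near-identical BGLU21 and BGLU22 fell by 1.07 ± 0.20 and 1.32 ± 0.26, and differed from sog1-7 by −1.48 ± 0.29 and −2.06 ± 0.37.

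Of the aluminium resistance list 19 of 20 genes passed the filter and 8 were called higher, 0 lower (median 0.31), and 4 when replicate 2 at 1.5 mM, or 5 when replicate 2 or 3 at 0 mM or replicate 3 at 1.5 mM, was left out. The malate channel ALMT1 (AT1G08430, chromosome 1, 2658602 to 2661310) had 79.8, 60.6 and 68.1 CPM at 0 mM and 144, 160 and 170 CPM at 1.5 mM in als3-1 (1.18 ± 0.18, adjusted p = 0.000544). Its treated level was 158 ± 13.4 CPM (SD, n = 3), beside 133 ± 14.6 CPM in wild type and 131 ± 7.4 CPM in sog1-7, while its level at 0 mM was 2.78 log2 units above wild type (edgeR, adjusted p = 4.48e-06). Its rise was smaller than in wild type (difference −2.53 ± 0.26, adjusted p = 0.000986). The citrate transporter MATE went from 7.55, 4.99 and 6 to 24.6, 15 and 19.2 CPM (1.67 ± 0.23), and PGIP2, an inhibitor of pectin-degrading enzymes, rose by 1.26 ± 0.21. STOP1 (−0.11) and STAR1, the partner of ALS3 (0.36), were not called. The vacuolar transporter ALS1 was called at 0.31 ± 0.09, but not when replicate 2 or 3 at 0 mM or replicate 2 or 4 at 1.5 mM was left out (adjusted p = 0.0824 to 0.107).

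Of 36 phosphate starvation genes 33 passed the filter and 17 were called higher, with 0 lower and a median of 1.02, beside 0.63 in wild type and 0.66 in sog1-7. The number was 8 without 1.5 mM replicate 3, 11 without 0 mM replicate 2 or 4, and 23 with the block. Non-coding RNAs that mimic the target site of the regulator miR399 led: IPS1 went from 0.999, 1.1 and 0.78 to 5.71, 7.93 and 6.86 CPM (2.84 ± 0.47, adjusted p = 0.00112) and AT4 from 24.5, 25.4 and 18.6 to 71.6, 139 and 112 CPM (2.24 ± 0.26). Lipid remodelling genes followed, which replace phospholipids by galactolipids and sulfolipids. The phospholipase NPC4 (AT3G03530, chromosome 3, 842499 to 845096) went from 1.5, 1.8 and 1.44 to 3.72, 4.45 and 5.31 CPM (1.51 ± 0.24), and the galactolipid synthase MGD2 (AT5G20410, chromosome 5, 6896463 to 6898783) from 21.5, 28.8 and 27.5 to 47, 80.9 and 61.4 CPM (1.28 ± 0.26). No treated library overlapped the untreated ones in these genes. The sulfolipid synthase SQD2 rose by 1.06 ± 0.18, the phosphate transporter PHT1;4 by 1.28 ± 0.22, and the oxidase LPR2 of phosphate sensing by 0.79 ± 0.17. PHR1, the master regulator, had −0.09 and SPX1 0.63, neither called. For 0 of the 33 was a difference from wild type or from sog1-7 called.

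PHR1 is known to bind the element P1BS, GNATATNC, which stood in 6.54% of all promoters of 300 bases, in 9.43% of those of genes called higher in als3-1, in 9 of 33 promoters of the phosphate list and in 7 of the 17 of its genes called higher. The promoters of both lipid genes are printed with the element in capitals: NPC4 at chr3:845097-845396 (minus strand) and MGD2 at chr5:6896163-6896462 (plus strand).
NPC4: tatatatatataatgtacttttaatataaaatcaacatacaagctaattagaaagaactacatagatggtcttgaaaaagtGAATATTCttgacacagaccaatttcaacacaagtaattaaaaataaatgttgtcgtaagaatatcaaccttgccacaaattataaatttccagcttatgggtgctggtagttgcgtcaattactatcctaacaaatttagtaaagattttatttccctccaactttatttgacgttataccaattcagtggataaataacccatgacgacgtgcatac
MGD2: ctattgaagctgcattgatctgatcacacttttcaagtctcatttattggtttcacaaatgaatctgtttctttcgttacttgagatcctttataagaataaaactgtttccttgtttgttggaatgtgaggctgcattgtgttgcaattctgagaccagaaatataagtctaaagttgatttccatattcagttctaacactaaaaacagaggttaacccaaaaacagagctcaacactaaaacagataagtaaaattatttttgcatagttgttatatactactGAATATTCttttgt
Each holds 1 match, and a match describes the letters and not a bound site.

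Of 33 iron supply genes 8 were called lower and 0 higher (2 higher with the replicate block), while 14 had positive and 19 negative log2 fold changes. The median was −0.10, beside −0.12 in wild type and −0.34 in sog1-7. The transporter IRT1 went from 135, 91.1 and 97.3 to 11.4, 13.4 and 14.6 CPM (−3.04 ± 0.19), a larger fall than in wild type (difference −1.82 ± 0.25, adjusted p = 0.00398). Its regulator FIT went from 20.3, 15.7 and 10.1 to 4.01, 3.18 and 2.7 CPM (−2.21 ± 0.33). IRT2 fell by 2.18 ± 0.35, the vacuolar metal pump HMA3 by 2.18 ± 0.24, FRO2 by 1.52 ± 0.23, the zinc transporter MTPA2 by 1.26 ± 0.20 and the nickel and iron transporter IREG2 by 1.04 ± 0.20. The fall of HMA3 was larger than in sog1-7 (difference −1.75 ± 0.34). Other regulators of the iron shortage response were not called, with BHLH38 at 0.15, BHLH39 at −0.01, BHLH100 at 0.72, BHLH101 at 0.40, PYE at 0.25 and BTS at 0.23. The ferritins FER1, FER3 and FER4 were not called either, at −0.39, −0.31 and −0.09.

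Sulfate transporters moved in opposite directions. SULTR1;1 of root uptake fell from 5, 4.73 and 3.47 to 0.227, 0.57 and 0.425 CPM (−3.45 ± 0.44, adjusted p = 0.000124), while SULTR2;1 of the vascular tissue (AT5G10180) rose from 7.35, 13.7 and 15.5 to 42.3, 61.5 and 44.8 CPM (2.02 ± 0.25) and SULTR3;1 rose by 1.53 ± 0.20. No library of 1 group reached the other. The sulfate assimilation genes APR1 (0.07), APR2 (−0.42) and APR3 (−0.55) were not called. For potassium, the high-affinity transporter HAK5 rose from 9.29, 5.82 and 4.09 to 74.8, 45.4 and 64.4 CPM (3.27 ± 0.32), and the channel SKOR, which loads potassium into the xylem, fell from 17.7, 19.6 and 9.4 to 3.18, 2.66 and 2.7 CPM (−2.44 ± 0.28), a larger fall than in sog1-7 (difference −1.61 ± 0.37). For nitrogen, the nitrate transporter NRT2.4 fell from 1.2, 1.8 and 0.874 to 0.331, 0.136 and 0.152 CPM (−2.58 ± 0.47). The nitrate reductases NIA1 and NIA2 rose by 1.11 ± 0.27 and 1.08 ± 0.25, calls that ended without 0 mM replicate 2 (adjusted p = 0.066 and 0.061) or 1.5 mM replicate 3 (0.0707 and 0.0626).

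Glutathione transferases, which conjugate toxic compounds to glutathione, were called higher in 12 of 36 genes and lower in 3 (median 0.25). GSTF6 and GSTF7, near-identical neighbours, went from 269, 307 and 330 to 637, 733 and 652 CPM (1.16 ± 0.25) and from 51.1, 46.3 and 48.8 to 178, 139 and 107 CPM (1.54 ± 0.22). GSTU24 rose by 1.33 ± 0.27 and GSTU10 by 1.2 ± 0.22, while GSTF14 fell from 21.9, 22.9 and 32.7 to 4.24, 2.04 and 3.61 CPM (−2.96 ± 0.28). Groups did not overlap in these genes. The oxidative burst kinase gene OXI1 rose by 1.66 ± 0.29. Catalases CAT1 (0.22), CAT2 (0.00) and CAT3 (0.50) and ascorbate peroxidase APX1 (0.17) were not called.

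Among the WRKY transcription factors, 15 of 63 were called higher and 7 lower (median 0.25), or 23 and 8 with the block. The number higher was 8 when replicate 2 at 0 mM or replicate 3 at 1.5 mM was left out, and 9 when replicate 3 or 4 at 0 mM or replicate 2 at 1.5 mM was. The number lower was 2 when replicate 3 of either concentration was left out, and 3 when replicate 4 at 0 mM or replicate 2 at 1.5 mM was. WRKY24 went from 0, 0.0333 and 0.0709 to 0.455, 0.788 and 0.759 CPM (4.04 ± 0.63, adjusted p = 0.000628), WRKY28 rose by 1.71 ± 0.39, WRKY50 by 1.28 ± 0.24, WRKY45 by 1.1 ± 0.21 and WRKY48 by 1.09 ± 0.19. WRKY9 fell by 1.16 ± 0.18. Of the W-box, which these factors bind, only the form TTGACC was searched. It stood in 14.1% of all promoters and in 15.7% of those of genes called higher. Among all WRKY genes tested it stood in 8 of 63 promoters (12.7%), with 4 of the 15 called higher and 1 of the 7 called lower. Of 20 glutamate receptor-like channels, GLR2.3 fell from 5.97, 4.89 and 3.31 to 0.0414, 0.0815 and 0.0911 CPM, levels at or under 3 counts (−6.04 ± 0.60), and GLR2.6 fell by 1.50 ± 0.33, while GLR2.5 rose by 1.13 ± 0.24.

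Several genes of defence, abscisic acid and seeds were high in treated replicates 2 and 3 and within or near the untreated range in treated replicate 4. In 99 genes called higher, 1.5 mM replicate 4 was the only treated library that did not exceed the highest untreated one. For replicates 2 and 3 the number was 1 each. Of 15 salicylic acid genes 6 were called higher (median 1.26), 3 without 1.5 mM replicate 2 or without the low-rRNA libraries, and 10 without 1.5 mM replicate 4. The pathogenesis-related glucanase PR2 (AT3G57260) had 0.382, 0.266 and 0.0945 CPM at 0 mM and 74.9, 21.9 and 0.182 CPM at 1.5 mM (7.07 ± 1.57, adjusted p = 0.00857). The receptor kinase CRK6 went from 0.705, 1.26 and 0.213 to 43.2, 32.5 and 4.37 CPM (5.25 ± 1.04), so that its replicate 4 rose too. The signalling gene CBP60G went from 2.91, 3.36 and 3.38 to 12.8, 9.32 and 5.19 CPM (1.50 ± 0.31) and PAD3, the last step of camalexin synthesis, rose by 1.29 ± 0.23, 1.49 ± 0.33 more than in sog1-7. The salicylic acid synthesis gene ICS1 (0.32) and the regulators EDS1 (0.31) and PAD4 (−0.08) were not called.

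Of 20 abscisic acid and LEA genes, LEA being protective proteins of seeds and dry tissue, 8 were called higher and 2 lower (median 0.72). The number higher was 4 without 1.5 mM replicate 2, 5 when replicate 2 or 4 at 0 mM or replicate 3 at 1.5 mM was left out, and 3 without the low-rRNA libraries. RD29B went from 1.76, 2.03 and 1.75 to 21.4, 18.1 and 1.88 CPM (2.90 ± 0.62), and the dehydrin ERD10 fell from 94.8, 101 and 140 to 59.8, 51.8 and 58.9 CPM (−0.98 ± 0.16). Of 16 seed protein genes 5 were called higher (median 2.91), 10 without 1.5 mM replicate 4 and 1 or 2 when any replicate at 0 mM or replicate 3 at 1.5 mM was left out. The oleosin OLEO2 went from 0.411, 0.166 and 0.0945 to 8.77, 10.7 and 0.212 CPM (4.88 ± 0.93). The summed level of the 17 seed genes was 8.02, 20.5 and 5.27 CPM at 0 mM and 42.4, 146 and 5.16 CPM at 1.5 mM, with none of them at 0 in all 6 libraries. Their part in the other results was not tested. The wall-associated kinase WAK1 had 57.5, 50.6 and 3.13 CPM at 1.5 mM against 5.2, 5.09 and 2.43 CPM (3.14 ± 0.80), a call that ended without any library other than 1.5 mM replicate 4 (adjusted p = 0.0555 to 0.0798), while WAK4 fell from 2.97, 3.89 and 4.58 to 0.62, 0.38 and 0.486 CPM (−2.92 ± 0.36) in all of them.

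Stachyose synthase STS fell from 10.5, 8.82 and 10 to 0.91, 1.49 and 1.73 CPM (−2.84 ± 0.29), and the galactinol synthase GolS2 rose by 2.52 ± 0.57. By mean CPM, ADC2, an arginine decarboxylase of polyamine synthesis, rose from 371, 500 and 570 to 1110, 1390 and 1170 CPM (1.35 ± 0.21, adjusted p = 0.00058). XPL1, a methyltransferase of phosphocholine synthesis, fell from 314, 348 and 327 to 94.2, 125 and 116 CPM (−1.56 ± 0.15), a larger fall than in sog1-7 (difference −1.07 ± 0.21). The glutamine synthetase gene GSR2 fell from 715, 835 and 804 to 405, 456 and 430 CPM (−0.87 ± 0.13). Groups did not overlap in these genes. MLP28 (0.98 ± 0.25) and XTH4 (0.75 ± 0.20), also abundant, lost their calls when replicate 2 or 3 of either concentration was left out (adjusted p = 0.0509 to 0.0917 and 0.0535 to 0.101).

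Several lists that mark other organs or general stress held 0 calls with edgeR in als3-1. These were photosynthesis (32 genes, 1 at unadjusted p under 0.05, 0 with DESeq2 and 7 higher with the block), the circadian clock (16 genes, 3, 0 and 2 higher), heat shock (11 genes, 0, 0 and 0), flavonoid synthesis (15 genes, 3, 1 higher and 2 higher), the mobilisation of seed oil (10 genes, 1, 0 and 2 higher) and root triterpenes (5 genes, 2, 1 higher and 1 higher). The summed level of the 32 photosynthesis genes was 20700 to 38300 CPM at 0 mM and 35500 to 45100 CPM at 1.5 mM, with the lowest value in 0 mM replicate 2, and 30 of the 32 had positive log2 fold changes, with a median of 0.47. Heat shock genes such as HSP101 (0.30) and HSP90.1 (−0.26), and the clock genes CCA1 (−0.08) and TOC1 (0.01), were among those not called.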

How the data were processed

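Poly(A) RNA of whole seedlings was sequenced with a directional kit, per the labels. The deposited files give a raw count per gene and the authors' FPKM value for 32833 genes. Per the submitters' processing notes, the tools were FastQC 0.11.7, STAR 2.7.3a, featureCounts 2.0.0, Cufflinks 2.2.1 and DESeq2 1.36.0 on TAIR10; the sources used here give neither the strand setting nor the rule for reads with several matches, so overlapping, antisense and near-identical genes are uncertain.

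Counts were tested with edgeR 4.0.16 (TMM scaling, genes filtered by group, robust quasi-likelihood fit) in R 4.3.3, with 1 mean for each of the 6 groups over all 18 libraries and the spread shared between them, and Benjamini-Hochberg adjustment over 21650 genes with a threshold of 0.05. CPM values were computed from the deposited counts. Alternatives were DESeq2 1.42.0, its size factors, no filter, the 6 als3-1 libraries alone, limma 3.58.1 on log2(FPKM + 1) of the deposited FPKM values, the replicate number as a block, leaving out each als3-1 library, and leaving out 3 low-rRNA libraries. List counts without 1.5 mM replicate 4 were singled out after the data were seen. Same-numbered als3-1 libraries deviated together from their group means over 21650 genes (Pearson r = 0.206, 0.369 and 0.236), and so did those of the other genotypes. The numbers were therefore taken to pair the samples, but only in the alternative with the replicate block. The main fit ignored this pairing, and the p-values, SEs and counts given without mention of the block are unpaired. On simulated counts for 21447 genes, 66 of 100 genes with a true log2 change of 1 and 97 of 100 with a change of 2 were called, with 9 false calls. Those counts were drawn independently for each library, and only these genes, each with a mean of at least 1 CPM, differed between groups. The shared deviations of same-numbered libraries and the departure of 1.5 mM replicate 4 were not simulated, so these rates need not hold for the real libraries.

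The comparison, the 36 lists and the 13 families were chosen with earlier results of these data known, and 640 of 655 list members matched the annotation. The text names the 12 highest and 12 lowest stable genes, up to 6 called members and the main regulators of each list, the 6 largest rises and falls of mean CPM, up to 8 genes differing from both other genotypes, the 6 with the largest spread at 1.5 mM, genes with opposite calls, and ALS3 and SOG1; not all of these are printed, and a few list members are counted but not reported here by name. The 12 highest and 12 lowest genes also had to show no overlap between the treated and untreated libraries. The motifs, the promoters shown, the product classes and the genes with stable calls printed beyond the naming rule were chosen after values were seen, as was the removal of a peroxiredoxin from the peroxidase family.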

Additional observations from a re-analysis of the deposited data

Results flagged for a closer look

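The aluminium response of als3-1 differed from that of another genotype for the genes below, by edgeR's test of the difference with adjustment over all genes. Values are als3-1 minus the other genotype, in log2 units, and no cause was tested. For 3 genes the difference was called against wild type but not sog1-7: MGP (−0.92), CYCB1;3 (−0.89) and IRT1 (−1.82). Against sog1-7 but not wild type, the difference was positive for MYB93 (1.77), PER11 (1.72), PAD3 (1.49), SMR7 (5.14), TRFL10 (2.46), GMI1 (2.61), XRI1 (2.35), ERF114 (2.91) and RAD17 (2.13). It was negative against sog1-7 for YUC3 (−1.59), FEZ (−2.38), PLT2 (−1.31), ARR3 (−1.69), BGLU21 (−1.48), BGLU22 (−2.06), SKOR (−1.61), XPL1 (−1.07), PLT1 (−1.74), AT4G12520 (−3.84), AT4G22212 (−1.99), HMA3 (−1.75), XTH5 (−1.33), AGP14 (−2.24), PIN2 (−0.99) and PIP2;4 (−2.33). Against both wild type and sog1-7 the differences were −2.89 and −3.40 for AT1G05660, −2.53 and −2.56 for ALMT1, −3.46 and −3.88 for AT1G19900, −4.84 and −4.70 for AT2G04480 and −2.55 and −3.38 for AT2G16230. Further such pairs were −2.23 and −2.29 for XTH21, −2.63 and −2.59 for AGP30, −3.69 and −3.64 for AT2G41810, −1.54 and −1.97 for PER27 and −4.08 and −4.14 for AT3G46400. They were also −2.34 and −2.76 for AT3G49190, −4.86 and −4.59 for AT4G01890, −4.57 and −4.64 for ATCSLB05, −2.12 and −1.63 for BARS1 and −1.80 and −2.34 for MSRB7. The remaining ones were −2.27 and −2.72 for AT4G28410, −4.38 and −4.79 for AT5G46890, −4.85 and −5.56 for AT5G46900, −1.79 and −2.01 for AGP22 and −1.09 and −1.02 for EXPA14.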

How the results depend on the processing

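None of the 220 genes of the naming rule reversed its change in an alternative. Counts of called genes and of list members have no sign, so they could move but not reverse. The count of called genes for the als3-1 response, 2348, became 4593 with the replicate block and 1164 in the fit on als3-1 alone. It was 1468 with limma on FPKM and 1360 to 2477 without 1 als3-1 library. With DESeq2 it was 3144, with its size factors 2345, without a filter 2142 and without the low-rRNA libraries 2104. Of the main calls, 2342 were shared with DESeq2, 2316 with the block, 1124 with the als3-1 fit and 1327 with FPKM. The difference from wild type, 87 genes, became 220 with DESeq2, 16 on FPKM, 187 with the block and 43 to 104 without 1 library. The difference from sog1-7, 249 genes, became 455, 129, 410 and 149 to 256, and 111 without the low-rRNA libraries. The causes were not tested. Of the 220 genes of the naming rule, the replicate block ended 7 calls: AGP5 (2.82), GSTU12 (1.90), PR1 (2.45), OLEO4 (2.2), OLEO1 (2.83), CYP81F3 (−0.94) and RAB18 (3.24). It changed no other call of those genes. Of the same 220 genes, 85 lost their call in the fit on als3-1 alone, 52 with limma on FPKM, 50 without the low-rRNA libraries, 13 without a filter, 2 with the other size factors and 0 with DESeq2, and 19 to 69 without 1 library. Of 98 counts of list members called, 39 moved by over 1.5 times with the fit on als3-1 alone, 40 with the block, 28 with FPKM, 18 without the low-rRNA libraries, 12 with DESeq2, 5 without a filter and 0 with the other size factors, and 13 to 34 without 1 library. Calls of 129 of the 220 held without each library. The median change of all genes was 0.017 with TMM scaling, 0.025 with the other size factors and 0.058 with limma on FPKM, which also changes the unit and the test. Counts set the limit for genes near 3 counts in a library.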
